A study of Oryza sativa Japonica Group with 3 samples.

Results

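The small heat shock proteins described here are 10 rice loci of 55986 in all, listed by locus ID from their annotation. They were chosen with earlier results of these data known, though no threshold on a measured value was set. They are part of a larger family, for which RefSeq's gene table names 22 protein-coding genes. They comprise 4 loci on chromosome 1 listed as a 16.9 kDa group, here the chromosome 1 group, 4 loci on chromosome 3 listed as a 17 to 18 kDa group, here the chromosome 3 group, the plastid protein HSP26.7 on chromosome 3 and the class II protein HSP18 on chromosome 1. RNA came from whole seeds of Jiucaiqing, a japonica rice landrace, with no treatment other than water. The 3 libraries were the dry seed (0 h), the imbibed seed after 24 h in distilled water and the germinated seed after 48 h, with the chamber held at 30 °C. Each library combined 3 biological replicates before sequencing, so there was 1 library per stage, no replicate error, and no test or p-value.

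Small heat shock proteins are chaperones built around a conserved alpha-crystallin domain. They assemble into oligomers and, without using ATP, hold unfolding proteins in a state from which ATP-driven chaperones such as HSP70 and HSP100 can refold them. Plants carry many nuclear genes for them, sorted into classes by where the protein works, among them cytosolic classes I and II and a plastid class. They are best known for their rise under heat, and in many plants they also accumulate during seed maturation with no heat stress and are stored in the dry seed.

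The values are FPKM, a fragment count scaled to transcript length and to the size of the library, summed over the isoforms of a locus. FPKM is divided by length, so levels may be set side by side between loci. The read totals behind the values are not given, so the counting error of a single value is unknown. The sum over all loci was 881252 FPKM at 0 h, 580571 at 24 h and 535327 at 48 h. A locus was called lower or higher where it differed by at least 2-fold on log2(FPKM + 1), a fixed rule of size, among the 20915 loci that reached 1 FPKM in any library. All 10 members passed that filter. The tissue label was not checked against marker genes, because the files give no gene names.

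All 10 members were abundant in the dry seed and lower at each later stage. Their levels ran from 896 to 7604 FPKM in the dry seed with a median of 3482, from 35.7 to 677 FPKM at 24 h with a median of 242, and from 4.11 to 70.4 FPKM at 48 h with a median of 29.8. The ranges of the dry seed and 24 h did not overlap, whereas the highest members at 48 h lay above the lowest at 24 h. Of the 10 members, 9 ranked among the 100 highest loci at 0 h, 3 at 24 h and none at 48 h. Together they made up 4.62% of the dry seed's summed FPKM, 0.532% at 24 h and 0.0623% at 48 h. RNA was taken from whole seeds, so fewer cells of a type and less RNA per cell cannot be told apart, and with 1 library per stage neither can the stage and the library preparation.

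**Figure D1:**
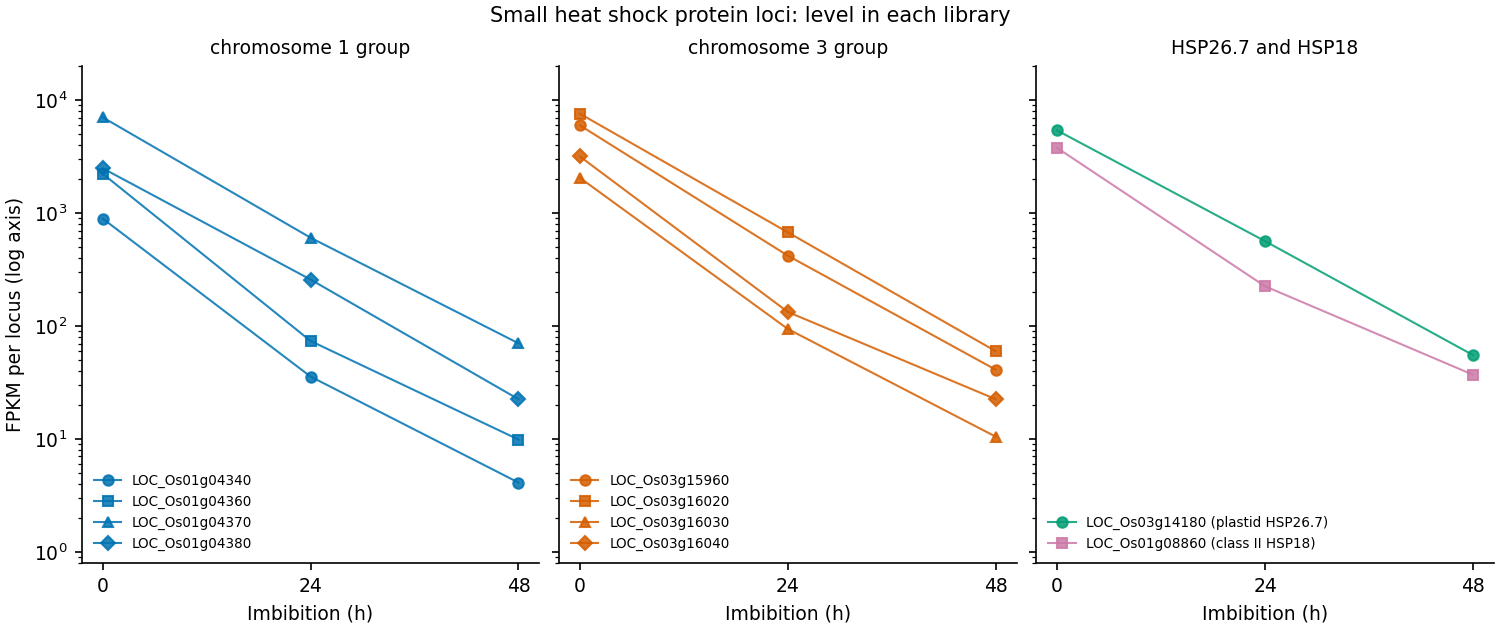
FPKM per locus on a log axis against hours of imbibition for the 10 small heat shock protein loci, 1 point per library, with the chromosome 1 group, the chromosome 3 group, and HSP26.7 with HSP18 in separate panels. Every line descends at both steps, and LOC_Os01g04340 is the lowest member in each library, ending at 4.11 FPKM.

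The chromosome 1 group was led by LOC_Os01g04370, which was at 7065 FPKM in the dry seed, then 606 at 24 h and 70.4 at 48 h. LOC_Os01g04380 was at 2500, 258 and 22.5 FPKM at 0, 24 and 48 h, and LOC_Os01g04360 at 2238, 73.8 and 9.88 FPKM. These loci were close in the dry seed and further apart later, with LOC_Os01g04380 the higher at every stage. LOC_Os01g04340 was the least abundant member, with 896 FPKM in the dry seed, then 35.7 at 24 h and 4.11 at 48 h. Against the dry seed, the log2 differences at 48 h were -6.63 for LOC_Os01g04370, -6.73 for LOC_Os01g04380, -7.69 for LOC_Os01g04360 and -7.46 for LOC_Os01g04340. The more abundant pair of loci in the group kept 0.996% and 0.900% of its dry-seed level at 48 h, and the less abundant pair 0.442% and 0.459%.

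The chromosome 3 group held the most abundant member in the dry seed, LOC_Os03g16020, at 7604 FPKM, with 677 at 24 h and 59.9 at 48 h. LOC_Os03g15960 followed at 5995, 421 and 41.1 FPKM. LOC_Os03g16040 was at 3180, 133 and 22.5 FPKM, and LOC_Os03g16030 at 2057, 94.3 and 10.5 FPKM. All 4 kept the same order of abundance in the 3 libraries. Their log2 differences between 48 h and 0 h lay between -7.49 for LOC_Os03g16030 and -6.96 for LOC_Os03g16020, a narrower range than the -7.69 to -6.63 of the chromosome 1 group.

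HSP26.7, a chaperone of the plastid encoded in the nucleus at LOC_Os03g14180, was at 5405 FPKM in the dry seed, then 565 at 24 h and 55.4 at 48 h. It had the smallest fall over the whole course among the members, with a log2 difference of -6.58. At 48 h it was at 1.03% of its dry-seed level, in the deposited values the only member above 1%. LOC_Os01g04370 was close, with -6.63 and 0.996%, and with 1 library per stage such a gap cannot be taken as a difference. HSP18, a class II protein at LOC_Os01g08860, was at 3784 FPKM in the dry seed, then 225 at 24 h and 37.1 at 48 h, with a log2 difference of -6.64 over the course. Its fall was steeper than that of HSP26.7 at the first step, with log2 differences of -4.06 and -3.26, and shallower at the second, with -2.57 and -3.33.

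After the first day in water every member was lower, in the deposited values by at least 8-fold. All 10 were at least 2-fold lower at 24 h than in the dry seed, where 15.4% of all loci were, and all 10 were at least 8-fold lower, where 1.84% of all loci were. Rescaled to the same sum per library, 6 members were at least 8-fold lower, where 0.990% of all loci were, and the others, LOC_Os01g04370, LOC_Os01g04380, LOC_Os03g16020 and HSP26.7, had log2 differences of -2.94 to -2.65. None was at least 2-fold higher, where 17.7% of all loci were. Their log2 differences ran from -4.90 for LOC_Os01g04360 to -3.26 for HSP26.7, with a median of -3.95, against a median of 0.06 over all loci. In the deposited values the members were thus at 3.30% to 10.5% of their dry-seed level at 24 h. The lowest of them, LOC_Os01g04340, LOC_Os01g04360, LOC_Os03g16030 and LOC_Os03g16040, were at 3.30% to 4.59%. These percentages depend on the scaling. Rescaled to the same sum per library, the log2 differences of these loci ran from -4.30 for LOC_Os01g04360 to -3.83 for LOC_Os03g16030. The summed FPKM of all members was 13.2-fold lower at 24 h than at 0 h. As a share of each library's summed FPKM it was 8.68-fold lower, since that sum was itself lower at 24 h.

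Between 24 h and germination at 48 h, all 10 members fell again. All were at least 2-fold lower at 48 h than at 24 h, where 10.9% of all loci were, and 6 were at least 8-fold lower, where 0.665% of all loci were, while none was at least 2-fold higher, where 13.8% of all loci were. The count at 8-fold was 4 under each of the rescalings tried, where 0.516% to 0.607% of all loci were. In the deposited values, the 4 under 8-fold were LOC_Os01g04340, LOC_Os01g04360, LOC_Os03g16040 and HSP18, with log2 differences of -2.85, -2.78, -2.52 and -2.57. The steepest falls at this step were those of LOC_Os03g16020 and LOC_Os01g04380, with log2 differences of -3.48 and -3.46, or 11.3-fold and 11.5-fold in FPKM, whose order depends on the pseudocount. The median over the members was -3.07, against 0.02 over all loci. All 10 members were at least 2-fold lower at both steps, as were 3.35% of all loci.

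**Figure D2:**
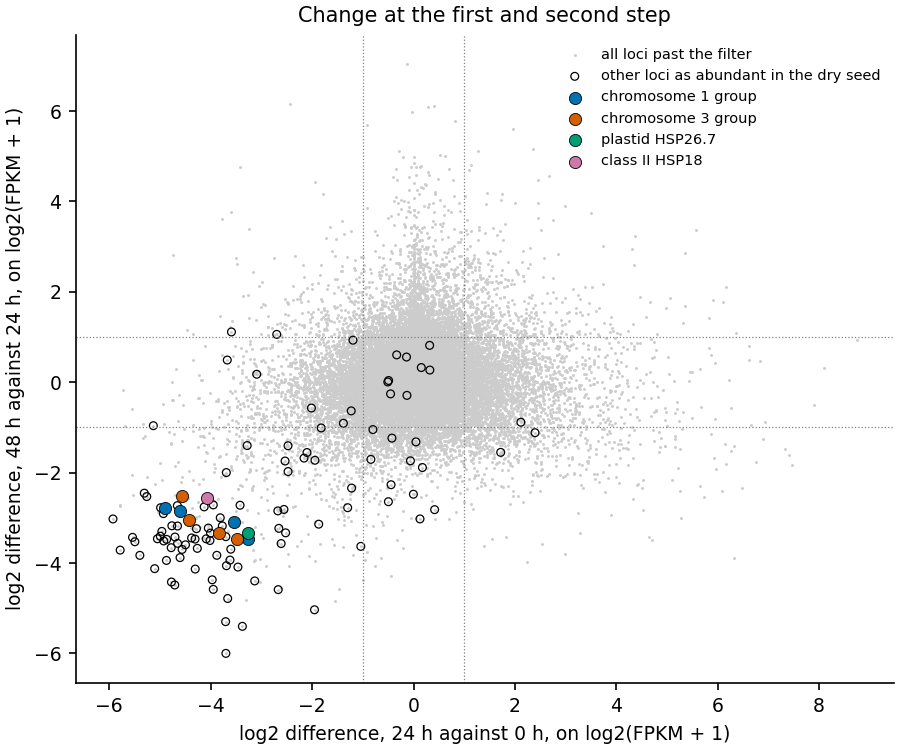
Log2 difference at the first step (24 h against 0 h, horizontal) and the second step (48 h against 24 h, vertical), both on log2(FPKM + 1), for all 20915 loci in grey, the 106 other loci at least as abundant in the dry seed as the lowest member as open circles, and the 10 members in colour; dotted lines mark 2-fold. The members lie together at the lower left, where 54 of the 106 open circles were also at least 8-fold lower at the first step and at least 4-fold lower at the second.

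Over the whole course all 10 members were, in the deposited values, at least 64-fold lower at 48 h than in the dry seed, a size reached by 0.679% of all loci. Rescaled to the same sum per library, 7 members reached 64-fold, where 0.512% of all loci did, and 6 did when LOC_Os09g00999, the most abundant locus of all, was left out of the sum, where 0.473% of all loci did. LOC_Os01g04370, HSP26.7 and HSP18 fell short under both rescalings, with log2 differences of -5.92 to -5.63. At 2-fold, 20.4% of all loci were lower over this course and 27.5% higher, against 10 and 0 of the members. The median log2 difference was -7.02, against 0.18 over all loci, and in the deposited values the members ranked from 46th to 112th among the most negative differences of the 20915. The summed FPKM of the members was 122-fold lower, and 74.2-fold lower as a share of the library. By group, summed FPKM was 119-fold lower for the chromosome 1 group, 141-fold for the chromosome 3 group, 97.6-fold for HSP26.7 and 102-fold for HSP18. As shares of the library these were 72.2-fold, 85.4-fold, 59.3-fold and 62.0-fold. Single-locus values within a group depend on how reads matching several copies were divided, which the files do not show.

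A fall of this size was common among loci as abundant in the dry seed. Besides the 10 members, 106 loci were at or above the 896 FPKM of the lowest member at 0 h, a limit set after the values were seen. Of these 106, 83 were at least 2-fold lower at 24 h and 93 at 48 h, and 58, or 54.7%, were at least 64-fold lower at 48 h. Their median log2 differences were -3.60 for the first step, -3.01 for the second and -6.85 over the course, close to the -3.95, -3.07 and -7.02 of the members. Loci picked for a high level in 1 library lie lower elsewhere partly by that choice. All 10 members were at least 8-fold lower at the first step and at least 4-fold lower at the second, as were 54 of these 106 loci, or 50.9%, and 0.631% of all loci. Rescaled to the same sum per library, these counts were 6 members and 50 of the 106, whereas the 0.631% is for the deposited values only. The difference between the members and these loci was not tested.

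The members differed more among themselves after imbibition than before. The highest was 8.48 times the lowest in the dry seed, 19.0 times at 24 h and 17.1 times at 48 h. The span of the log2 differences was 1.65 at the first step and 0.96 at the second. The 4 members with the steepest first fall, LOC_Os01g04360, LOC_Os01g04340, LOC_Os03g16040 and LOC_Os03g16030, had log2 differences of -3.05 to -2.52 at the second step. Both steps share the 24 h library, which ties them in opposite directions. Of the whole log2 fall, 48.6% to 64.5% had taken place by 24 h in the deposited values, with LOC_Os03g16020 at 50.1%. These shares depend on the scaling. Rescaled to the same sum per library, LOC_Os03g16020 had log2 differences from the dry seed of -2.89 at 24 h and -6.25 at 48 h. Members abundant in the dry seed tended to keep a larger share of their level. The Spearman correlation across the 10 loci between dry-seed FPKM and the percentage kept was 0.64 at 24 h and 0.64 at 48 h, a description over loci that share libraries and, within groups, similar sequence.

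The order of abundance was largely kept. Across the 10 loci, the Spearman correlation of levels was 0.94 between 0 h and 24 h, 0.97 between 24 h and 48 h and 0.96 between 0 h and 48 h. LOC_Os03g16020 and LOC_Os01g04370 were the highest pair in every library, within 1.08 times of each other at 0 h, 1.12 times at 24 h and 1.17 times at 48 h, and they changed places at 48 h. LOC_Os03g15960 and HSP26.7 held the next places and changed order after 0 h. With no replicate error, the order of such close neighbours cannot be taken as a difference between them.

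Within the chromosome 1 group, LOC_Os01g04370 made up 55.6% of the FPKM in the dry seed, then 62.2% at 24 h and 65.9% at 48 h. LOC_Os01g04360 went the other way after the dry seed, from 17.6% to 7.58% and 9.25%. By these values the group rested more on its main locus at the later stages, which was not tested. Shares within a group depend on how reads of similar copies were divided, which the values do not show. In the chromosome 3 group, LOC_Os03g15960 stayed at 31.8%, 31.7% and 30.7%. The share of LOC_Os03g16020 was highest at 24 h, with 40.4%, 51.1% and 44.7%, and that of LOC_Os03g16040 was lowest there, with 16.9%, 10.1% and 16.8%.

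**Figure D3:**
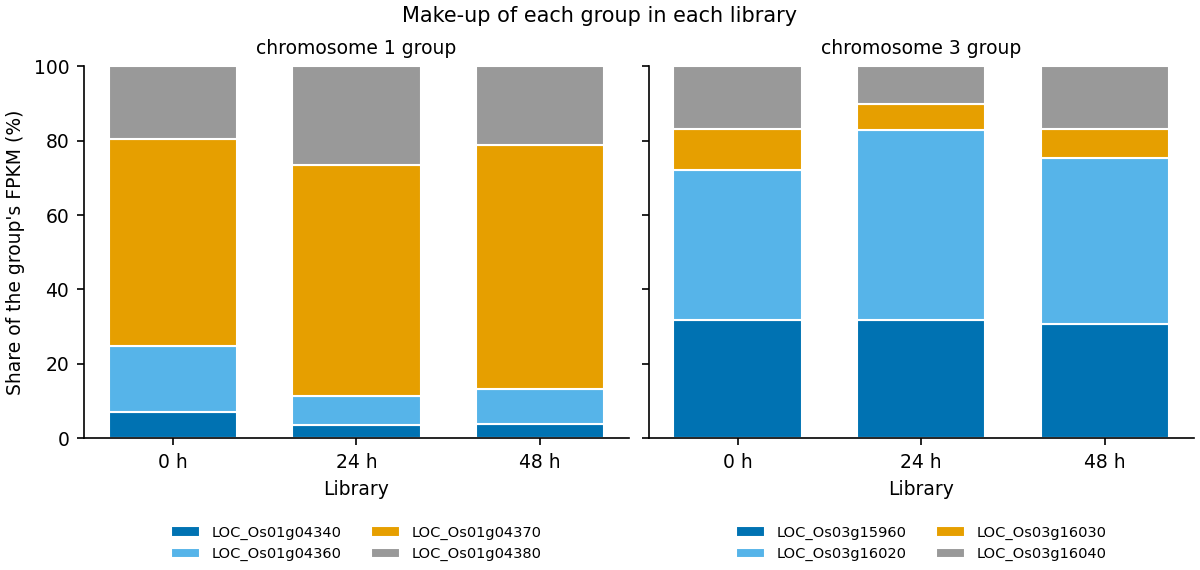
Share of each locus in its group's summed FPKM, in percent, for the chromosome 1 group and the chromosome 3 group at 0, 24 and 48 h, 1 stacked bar per library. The segment of LOC_Os01g04370 grows from 55.6% to 65.9%, while LOC_Os03g15960 stays between 30.7% and 31.8%.

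Of the 10 members, 2 have more than 1 listed isoform. For HSP18, isoform LOC_Os01g08860.2 was at 2716, 154 and 21.5 FPKM and isoform LOC_Os01g08860.1 at 1068, 71.0 and 15.5 FPKM at 0, 24 and 48 h. The first remained the main isoform, with a share of 71.8% in the dry seed, then 68.5% at 24 h and 58.1% at 48 h. For LOC_Os03g15960, the second isoform was listed at 0 in all 3 libraries, which can be a failed estimate, and the first carried the whole value.

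The IDs next to the members were looked at to see whether the fall extended along the chromosome. On chromosome 1, LOC_Os01g04350 lies by its ID inside the run of the chromosome 1 group but is no member. Its levels were 19.0, 1.47 and 0.40 FPKM in the order of the stages, far under the members on either side. Its log2 differences were -3.02 at the first step and -0.82 at the second, both made smaller by the 1 FPKM added at such low levels. The ID just before the run, LOC_Os01g04330, was as abundant as a member in the dry seed, with 1413 FPKM, and then stood at 39.3 and 19.7 FPKM. Its first fall, with a log2 difference of -5.13, exceeded that of every member, and its second, with -0.96, was smaller than that of every member and under 2-fold. What LOC_Os01g04330 encodes is not given in the sources used here. The other 5 IDs flanking the run were at 3.17 FPKM or less in every library.

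On chromosome 3, 5 IDs lie between LOC_Os03g15960 and LOC_Os03g16020, and none shared the dry-seed level of the members. The 11 neighbours of that run, 5 inside and 6 flanking, were at 28.2 FPKM or less in the dry seed. Of the 8 that passed the filter, 3 were at least 2-fold higher at 48 h than at 0 h and 1 was at least 2-fold lower, LOC_Os03g16000, with a log2 difference of -1.05. The levels of adjoining IDs differed widely, with LOC_Os03g16010 at 7.20 FPKM beside LOC_Os03g16020 at 7604 FPKM.

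**Figure D4:**
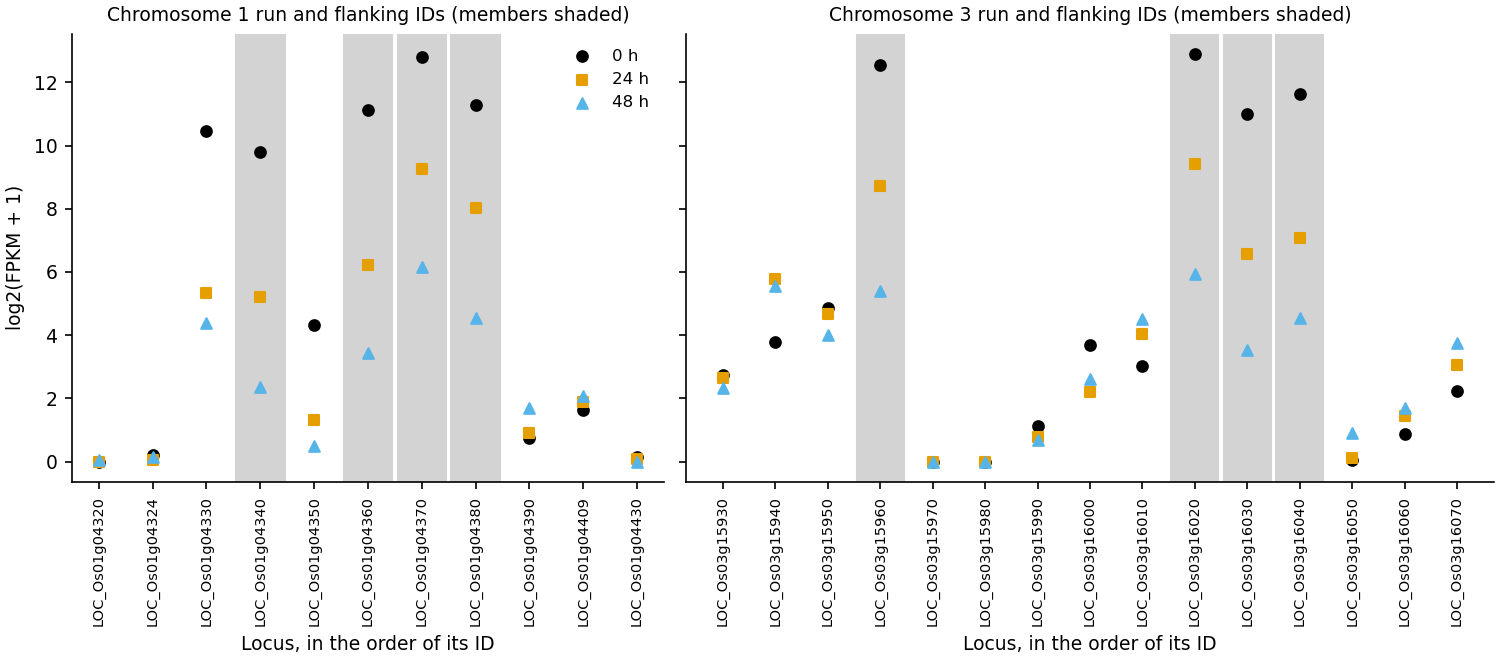
Level on log2(FPKM + 1) at 0, 24 and 48 h for each locus of the chromosome 1 and chromosome 3 runs and the 3 listed IDs on either side, in the order of their IDs, with members shaded. Apart from LOC_Os01g04330, at 1413 FPKM in the dry seed, no neighbour is within the members' range in the dry seed.

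RefSeq's gene table for assembly ASM3414082v1 has 22 protein-coding genes whose synonyms name a heat shock protein of 15 to 29 kDa, of which 6 are on chromosome 1 and 5 on chromosome 3. On chromosome 1, HSP16.6, HSP17.9B, HSP16.9C, HSP16.9A and HSP16.9B follow each other with no other protein-coding gene between them. On chromosome 3, HSP17.4, HSP18.1 and HSP17.7 do the same, with HSP17.9A a few genes before them. The table pairs none of these with the locus IDs of the files, so single members of both groups are given by ID. On chromosome 1 only HSP16.9A, HSP16.9B and HSP16.9C are named at 16.9 kDa, fewer than the 4 loci listed under that mass. The mass may thus not hold for every member of the chromosome 1 group. Whether LOC_Os01g04350, the non-member inside the chromosome 1 run, is one of the 5 consecutive genes on chromosome 1 cannot be read from the table. The counts of members do not cover it. They also leave out other genes of the 22, so a fall in every member does not describe the whole family.

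The 3 non-member loci whose levels over the 3 libraries were nearest to the members' median profile, by Euclidean distance on log2(FPKM + 1), were LOC_Os01g50910, LOC_Os07g24000 and LOC_Os03g46100. LOC_Os01g50910 was at 3545, 272 and 24.5 FPKM at 0, 24 and 48 h, at a distance of 0.29. LOC_Os07g24000 was at 3645, 299 and 22.2 FPKM, at 0.49, and LOC_Os03g46100 at 4702, 275 and 24.0 FPKM, at 0.54. These distances are smaller than those of most members, which lay between 0.38 and 4.21 from their own median. A profile over 3 libraries is shared by many loci.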

How the data were processed

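Poly(A)-enriched RNA was sequenced from whole seeds at 0, 24 and 48 h, with 3 biological replicates combined per library. The authors deposited FPKM per transcript isoform to 2 decimals, from isoform-level output per the file headers. The submitters' processing notes list RSEM 1.1.11, edgeR 2.3.52 and FastQC but say nothing of what each did. The genome build, annotation and scaling across libraries were not given in the sources used here. Reads of similar copies may have been divided by estimate, which bears on neighbouring members.

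Isoforms were summed per locus, from 66338 isoforms to 55986 loci. Libraries were compared on the log2(FPKM + 1) scale, which makes changes of low loci look smaller, by a 2-fold rule. The size rule was run on simulated data with set 4-fold changes and an assumed small noise, which cannot give its error rate in these data. Depth is unknown. The members and lists were chosen with earlier results of these data known. All members are named, with the neighbours of the chromosome 1 and chromosome 3 groups by ID (3 on either side) and the 3 nearest profiles. Heat shock factors and larger chaperones were not analysed here, since no table pairs their names with the IDs; no sequence was at hand. Alternatives were pseudocounts of 0.1 and 5 FPKM, no filter or one of 5 FPKM, a 4-fold rule, 4 rescalings and the main isoform alone. Python 3.11.15, numpy 2.4.6, pandas 2.3.3 and matplotlib 3.10.9 were used.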

Additional observations from a re-analysis of the deposited data

How the results depend on the processing

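The 480 alternative values covered the members' log2 differences, the sums per protein group and the counts of members at the 2-fold or 4-fold rule. All kept the direction reported and the side of that rule. Many of them could not change. The filter settings and the 4-fold rule leave every log2 difference and sum as it was. Neither filter could drop a member, since the lowest was at 896 FPKM in the dry seed. The main isoform alone altered only HSP18. Such values add no support. Counts at larger sizes, tried after seeing the data, depended on scaling. Under both rescalings to an equal sum, members at least 8-fold lower at 24 h than at 0 h went from 10 to 6, and those at least 8-fold and then at least 4-fold lower from 10 to 6. Members at least 64-fold lower at 48 h than at 0 h went from 10 to 7 with the same sum per library and to 6 without LOC_Os09g00999. Members at least 8-fold lower at 48 h than at 24 h were 6 as deposited and from 4 to 7 under the alternatives. All 10 stayed at least 2-fold lower at both steps under every alternative run. The 10 alternatives were other pseudocounts, filters, a 4-fold rule, rescalings and the most abundant isoform, and include 1 chosen after seeing the data, namely rescaling to an equal sum without LOC_Os09g00999, the most abundant locus. The members' log2 differences ran from -4.92 to -2.58 for 24 h against 0 h, from -3.52 to -2.16 for 48 h against 24 h and from -7.81 to -5.63 for 48 h against 0 h. The same sum per library, with the mean level kept, raised the median of all loci from 0.06 to 0.45 for 24 h against 0 h and from 0.18 to 0.72 for 48 h against 0 h. The share of all loci at least 2-fold lower then went from 15.4% to 8.20% and from 20.4% to 11.8%. No paired analysis was possible because each stage is 1 pooled library, and no replicate could be left out. Without read totals, the counting error of low values such as 4.11 FPKM for LOC_Os01g04340 cannot be given.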
